A study of Mus musculus with 11 samples.

Results

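Arrays of astrocyte ribosome pull-downs from fasted mice were set against those from fed mice. They were chosen by the dietary label alone, and all genes on them were compared. The comparison held 7 of the 11 arrays of the series, 3 from fasted mice and 4 from fed mice (normal chow for 4 weeks). The fasted arrays were labelled 24hr fasted, while the treatment description and the pull-down methods give an 18 h fast. The animal methods name both lengths. The other 4 arrays, from mice on a ketogenic diet, served only to share the estimate of spread. All animals carried Ribo-Tag, an epitope-tagged ribosomal protein switched on by Aldh1l1-Cre, so that mRNAs on the ribosomes of Cre-expressing cells could be pulled down from hippocampus. Aldh1l1 is a folate enzyme whose promoter is active mainly in astrocytes. Each array held 1 labelled biological sample, and the sources used here do not say whether a sample was 1 mouse or a pool. P-values therefore measure the spread between these samples.

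During a fast, glucose and insulin fall while fatty acids, ketone bodies and glucocorticoids in blood rise. Astrocytes sit between capillaries and neurons, carry glucocorticoid receptors, store glycogen, make much of the brain's cholesterol and can burn fatty acids. The glucocorticoid receptor is a transcription factor that hormone binding moves to the nucleus, where it raises a known set of target genes. Immediate early genes such as Fos are switched on within minutes by neuronal activity or growth factors, through the kinases that act on serum response factor and on CREB, the factor that cAMP and calcium activate.

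The values are RMA signals on a log2 scale, on which a difference of 1 is a doubling of signal. Between any pair of the 11 arrays the correlation across genes was 0.967 or higher. Odorant receptor genes, which are silent in most tissues, gave the level of an unexpressed gene, and 95% of the 862 measured lay below 3.96, a level called the floor here. Results are also given without array 2 of each group, since limma's array weights were 0.458 for fasted array 2 and 0.251 for fed array 2, against 1.03 to 1.43 for the other 9. Astrocyte identity was checked with 22 markers, all of which lay above the floor. Their mean was 8.20, 8.0 and 8.19 on the fasted arrays, against 8.11, 8.23, 8.26 and 8.21 on the fed arrays. Aldh1l1 itself read 6.88, 6.86 and 6.94 in the fasted group and 6.81, 7.12, 6.93 and 6.98 in the fed group, so the groups overlapped (log2 fold change -0.07 ± 0.10 standard error, SE, limma adjusted p = 0.914). Markers of neurons (20 genes, mean 7.86 to 8.09 on fasted and 7.77 to 7.88 on fed arrays) and of oligodendrocytes (16 genes, 6.99 to 7.35 on fasted and 7.40 to 7.64 on fed arrays) were also well above the floor. The pull-downs thus held RNA of other cell types, and for every cell type named here fewer cells and less RNA per cell cannot be told apart.

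No gene passed an adjusted p of 0.05 in limma (0 of 20259 genes, 0.00%). The paper's methods name no test for the arrays in particular. Their unpaired Student's t-test, after the same Benjamini-Hochberg adjustment, passed no gene either. At an unadjusted p under 0.05 limma gave 1433 genes (7.07%), of which 457 (2.26%) were higher and 976 (4.82%) lower after fasting. The t-test of the methods gave 340 higher and 693 lower. The split between directions depended on scaling, since with each array centred on its own median 660 genes were higher and 708 lower. For 437 genes (2.16%) all 3 fasted arrays lay above all 4 fed arrays, and for 866 genes (4.27%) below all of them. The fold changes were small. The median gene had a log2 fold change of -0.02, the 5th and 95th percentiles were -0.31 and 0.26, and 11 genes reached 1 (0.0543%) while 18 reached -1 (0.0888%). Without fasted array 2 and fed array 2, 616 genes were higher (3.04%) and 869 lower (4.29%) at an unadjusted p under 0.05. Both settings shared 690 such genes with the same sign. Counts of list members below are read against these shares, and since the lists were drawn up with earlier results of these arrays known, they are descriptions.

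**Figure D1:**
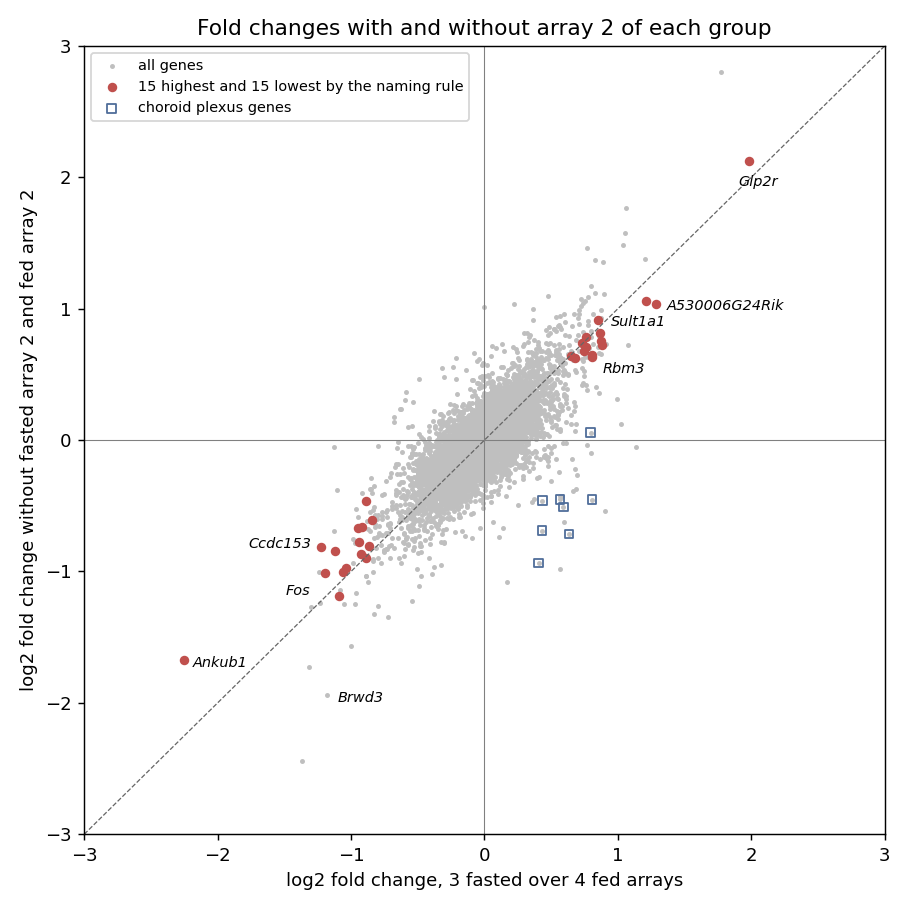
Log2 fold change of each gene, fasted over fed, with all 3 fasted and 4 fed arrays (x axis) and without fasted array 2 and fed array 2 (y axis). Red points are the 15 highest and 15 lowest genes of the naming rule, open squares are 8 choroid plexus genes, and the dashed line marks equal values; Glp2r and Ankub1 lie farthest out on the x axis, while 7 of the 8 choroid plexus genes change sign.

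Etnppl, the gene that the study followed up, encodes an enzyme that breaks down phosphoethanolamine, the precursor of the head group of phosphatidylethanolamine. It read 7.06, 7.01 and 7.42 on the fasted arrays, against 6.06, 6.02, 6.84 and 6.70 on the fed arrays. Every fasted array lay above every fed array, with the fed arrays in a lower and an upper pair. The log2 fold change was 0.76 ± 0.20 SE (limma adjusted p = 0.478), and 0.71 without both array 2 samples. An exact two-sided permutation test over the 7 arrays gave p = 0.0571, the smallest that 3 against 4 arrays allow. The paper selected Etnppl for its rise on its astrocyte microarrays, so this test cannot be taken as an independent check. Its results text describes those arrays as forebrain astrocytes and gives a much larger fold rise, while the sample titles here name hippocampal astrocytes. The paper also reports a rise after fasting by qRT-PCR in hippocampal samples and in hippocampal protein. Among 18 measured genes of phosphatidylethanolamine and ethanolamide metabolism, Etnppl was the 1 member at an unadjusted p under 0.05, and the median of the list was -0.07.

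The smallest p-value belonged to Sult1a1, a sulfotransferase for phenols and steroids. Sult1a1 read 6.17, 6.35 and 6.05 in fasted pull-downs, against 5.52, 5.41, 5.16 and 5.21 in fed pull-downs. The groups did not overlap, and the gap between them was wider than the range within either group (log2 fold change 0.86 ± 0.11 SE, limma adjusted p = 0.150). Mfsd2a, the transporter that brings docosahexaenoic acid into the brain as lysophosphatidylcholine, read 8.35, 8.17 and 8.15 in the fasted group and 7.60, 7.50, 7.79 and 7.59 in the fed group. Its log2 fold change was 0.60 (standard error 0.09, adjusted p = 0.223), and 0.59 without both array 2 samples. Mfsd2a is also an endothelial marker, and the mean of the 13 endothelial markers was 5.51, 5.82 and 5.24 on the fasted arrays and 5.60, 5.73, 4.98 and 5.16 on the fed arrays. These means overlapped, unlike Mfsd2a itself. Of the 13, 11 had a positive log2 fold change, and 3 (23.1%) were higher and 0 lower at an unadjusted p under 0.05, namely Mfsd2a, Esam (0.33) and Slc2a1 (0.24). The list median was 0.11, and without both array 2 samples it was 0.05, with Mfsd2a as the 1 higher member. Endothelial markers were thus higher in a share close to that of the receptor targets described next, and the part of endothelial RNA in the difference was not tested.

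Both genes are known targets of the glucocorticoid receptor. Of 35 such targets measured, 10 (28.6%) were higher and 0 lower at an unadjusted p under 0.05, against 2.26% of all genes for higher, and the median was 0.07. Angptl4, an inhibitor of lipoprotein lipase, read 4.95, 4.79 and 4.95 in fasted pull-downs and 4.48, 4.32, 4.55 and 4.32 in fed pull-downs (log2 fold change 0.48). Hif3a, a hypoxia-inducible factor subunit, read 5.04, 4.72 and 5.04 in the fasted group, against 4.51, 4.18, 4.50 and 4.51 in the fed group (log2 fold change 0.51). In neither gene did the groups overlap. The other members at that threshold were Cdkn1a (0.37), a brake on the cell cycle, the triglyceride lipase Pnpla2 (0.33), proline dehydrogenase Prodh (0.26), Zbtb16 (0.23), Fkbp5 (0.21), a chaperone partner of the receptor, and Bcl6 (0.20). Pnpla2 had a log2 fold change of 0.16 without both array 2 samples.

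Other classical targets overlapped between the groups. Sgk1, a kinase of ion transport, read 5.75, 6.29 and 5.90 in fasted pull-downs and 6.01, 6.25, 5.80 and 5.91 in fed pull-downs (log2 fold change -0.01). Tsc22d3, which encodes the anti-inflammatory protein Gilz, read 5.67, 5.18 and 5.66 in the fasted group and 5.33, 5.47, 5.58 and 5.31 in the fed group (0.08), and Mt1, a metallothionein, had a log2 fold change of 0.07. The list median was 0.12 without both array 2 samples, where 7 members were higher and 1 lower. Leaving out single arrays gave medians of 0.04 (without fasted array 1) to 0.13 (without fasted array 2).

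**Figure D2:**
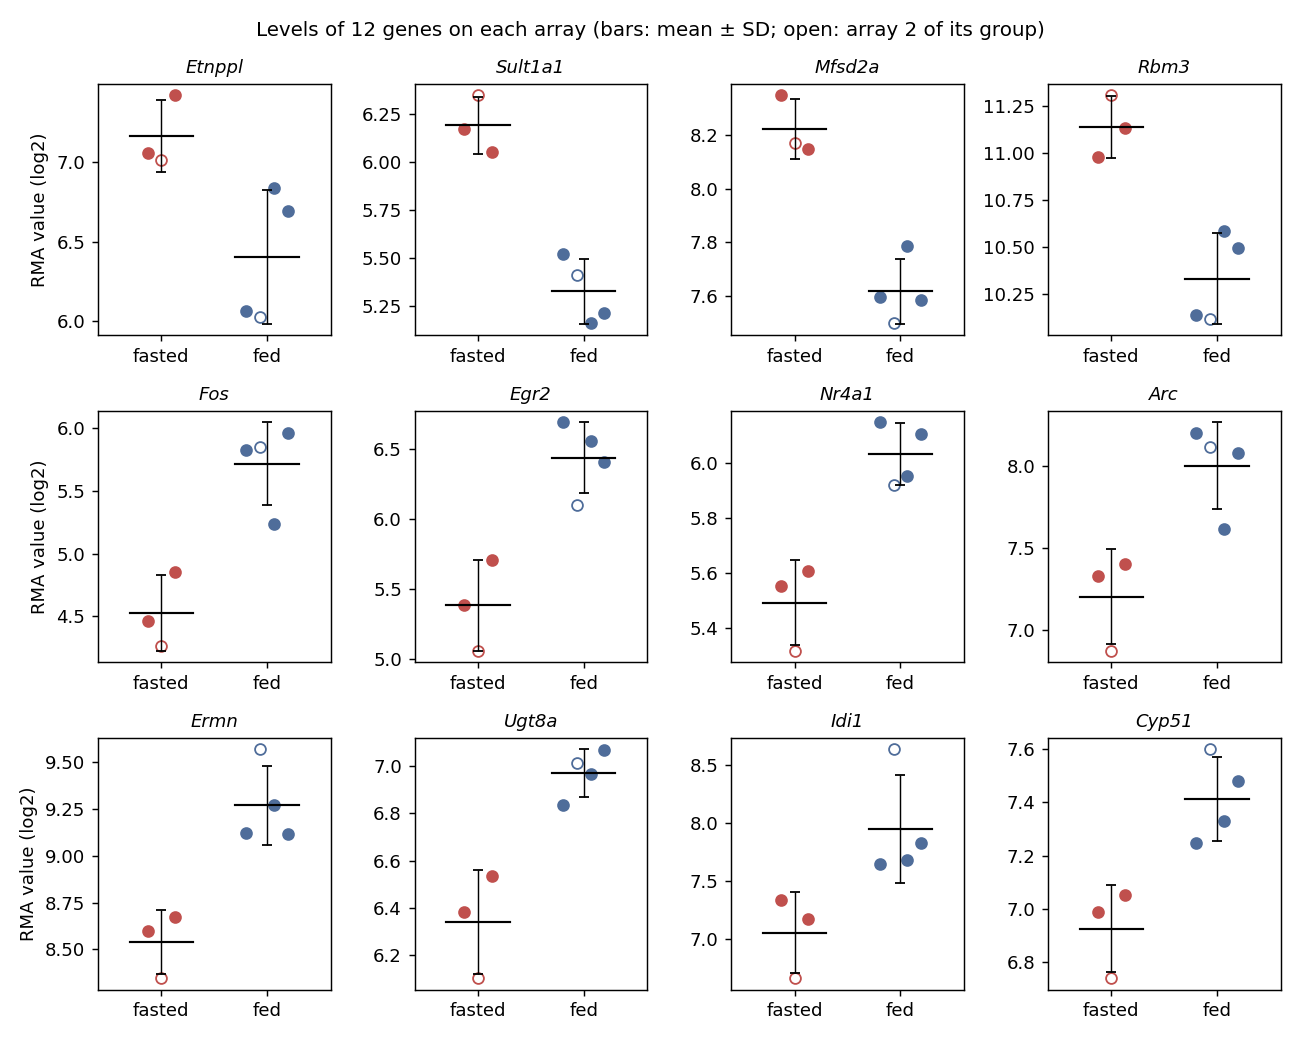
RMA value (log2) of 12 genes on each of the 3 fasted and 4 fed arrays, with the mean and SD of each group and open symbols for array 2 of each group. The fasted arrays lie above the fed ones for Etnppl, Sult1a1, Mfsd2a and Rbm3 and below them for the other 8 genes, without overlap in any panel.

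Immediate early transcription factors were lower after fasting for 6 of 23 measured members (26.1%) and higher for 0 at an unadjusted p under 0.05, against 4.82% of all genes for lower. Fos, a subunit of AP-1, read 4.46, 4.26 and 4.86 in fasted pull-downs, against 5.83, 5.85, 5.23 and 5.96 in fed pull-downs. Fed array 3 was the nearest to the fasted group (log2 fold change -1.19 ± 0.18 SE, limma adjusted p = 0.223). Leaving out that array had to widen the difference, so the limma adjusted p of 0.0441 without it is no added evidence. Egr2, a zinc finger factor, read 5.38, 5.06 and 5.71 in the fasted group and 6.69, 6.10, 6.56 and 6.41 in the fed group (log2 fold change -1.06, adjusted p = 0.275). Nr4a1, an orphan nuclear receptor, read 5.55, 5.31 and 5.61 after fasting and 6.15, 5.92, 5.96 and 6.11 in fed mice (-0.54, adjusted p = 0.275). None of these 3 genes had overlapping groups.

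Klf10 (-0.61), Egr1 (-0.49) and Nr4a3 (-0.30) were the other members at that threshold. All 3 fasted arrays lay below all 4 fed arrays for 8 of the 23 (34.8%, against 4.27% of all genes). They lay above them for 1, Jun (4.35%, against 2.16% of all genes). The highest value of the list was that of Klf4, a factor also made by endothelium, with 7.0, 6.29 and 6.48 on fasted arrays and 6.59, 5.43, 5.10 and 5.75 on fed arrays (log2 fold change 0.88, standard error 0.44). Its groups overlapped, and the median over its probe sets gave -0.21. The list median was -0.14, and -0.21 without both array 2 samples, where 8 members were lower and 0 higher.

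Effector genes that activity induces were lower for 8 of 29 members (27.6%) and higher for 1. Arc, a synaptic protein whose mRNA is made in active neurons, read 7.33, 6.87 and 7.40 in fasted pull-downs, against 8.20, 8.12, 7.61 and 8.08 in fed pull-downs (log2 fold change -0.80 ± 0.18 SE, limma adjusted p = 0.413). Dusp6, a phosphatase that ERK signalling induces and that switches ERK off, read 7.16, 7.31 and 7.28 in the fasted group and 7.86, 7.67, 7.67 and 7.64 in the fed group (-0.46). Neither gene's groups overlapped. Further members of that feedback on ERK were Dusp5 (-0.32, but 0.035 for its probe set median) and Spred1 (-0.26, but -0.11 without both array 2 samples). The remaining lower members were the activin subunit Inhba (-0.50), the small GTPase Gem (-0.42), the pentraxin Nptx2 (-0.34) and the synaptic scaffold Homer1 (-0.30), and secretogranin Scg2 was the higher one (0.24). Without both array 2 samples Inhba had -0.32 and Homer1 -0.13. The median of the 20 neuron markers was 0.12, and 0.02 without both.

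Promoters of 3 immediate early genes are printed because their transcripts had the lowest p-values of the list, as the 250 bases before the RefSeq start in build GRCm38.p6, 5′ to 3′. The arrays were annotated on mm9, and no coordinate was carried over. Capitals mark TGACG on either strand, the half-site of the cAMP response element that CREB binds, and in Egr2 also the CArG box of serum response factor. Egr2 has 5 listed starts, of which the most downstream is shown.
Fos (chr12:85473640-85473889, plus strand): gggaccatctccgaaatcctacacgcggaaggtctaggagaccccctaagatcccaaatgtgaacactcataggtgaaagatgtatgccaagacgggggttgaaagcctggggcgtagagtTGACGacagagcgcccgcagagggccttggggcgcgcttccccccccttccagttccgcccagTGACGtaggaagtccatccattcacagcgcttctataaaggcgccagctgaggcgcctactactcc
Egr2 (chr10:67537680-67537929, plus strand): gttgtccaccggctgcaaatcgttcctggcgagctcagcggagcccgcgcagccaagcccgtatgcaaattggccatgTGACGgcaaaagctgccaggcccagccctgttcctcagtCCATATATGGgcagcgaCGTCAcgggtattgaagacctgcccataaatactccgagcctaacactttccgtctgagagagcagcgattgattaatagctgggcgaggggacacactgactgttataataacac
Nr4a1 (chr15:101266596-101266845, plus strand): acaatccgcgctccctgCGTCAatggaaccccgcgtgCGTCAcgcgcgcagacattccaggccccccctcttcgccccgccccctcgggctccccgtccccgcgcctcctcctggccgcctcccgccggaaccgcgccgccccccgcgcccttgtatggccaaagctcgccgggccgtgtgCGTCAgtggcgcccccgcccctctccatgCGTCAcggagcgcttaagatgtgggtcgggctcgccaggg
The half-site stood in 17 of 24 listed promoters (70.8%) of the 18 immediate early transcription factor genes matched, against 17.8% of all 32851 promoters, and the CArG box in 5 (20.8%, all in Egr2 and Srf) against 1.47%. For activity-induced effector genes the shares were 35.7% and 3.57% of 28 promoters. None of the printed matches overlapped another motif, and a match is a description of these letters only.

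Oligodendrocyte markers had the largest share of lower members among the 46 lists, with 10 of 16 (62.5%) lower and 0 higher at an unadjusted p under 0.05. Ermn, a cytoskeletal protein of mature oligodendrocytes, read 8.60, 8.35 and 8.67 in fasted pull-downs, against 9.12, 9.57, 9.27 and 9.12 in fed pull-downs (log2 fold change -0.73 ± 0.12 SE, limma adjusted p = 0.275). Ugt8a, which makes the myelin lipid galactosylceramide, read 6.38, 6.10 and 6.53 in the fasted group and 6.83, 7.01, 6.97 and 7.07 in the fed group (-0.63). Opalin, a membrane protein of myelin, read 6.65, 5.60 and 6.59 in fasted mice, against 7.07, 6.60, 7.32 and 7.57 in fed mice (-0.86). The groups were apart for Ermn and Ugt8a and overlapped for Opalin.

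The sulfotransferase Gal3st1, which turns galactosylceramide into sulfatide, had a log2 fold change of -0.41, and the myelin proteins Mog, Mal, Mag and Cldn11 had values of -0.43, -0.37, -0.32 and -0.32. Aspa, which splits N-acetylaspartate, had -0.39, and the tetraspanin Tspan2 -0.33 (-0.19 without both array 2 samples). Mbp, the most familiar myelin transcript, overlapped between the groups, with 7.47, 7.44 and 7.45 in the fasted group and 7.50, 7.17, 7.53 and 7.56 in the fed group (0.01). The ceramide synthases Cers2 (-0.25) and Cers5 (-0.31), of which Cers2 makes the very long chain ceramides of myelin, were also lower at that threshold. Markers of oligodendrocyte precursors and newly formed oligodendrocytes were lower for 3 of 10 (30.0%), namely Sox10 (-0.49), Gpr17 (-0.40) and Neu4 (-0.33). The median of the oligodendrocyte markers was -0.33, and -0.30 without both array 2 samples, with 8 members lower. In a Cre line meant for astrocytes these transcripts belong to another cell type, and whether the fasted and fed samples held unequal amounts of it was not tested.

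Cholesterol synthesis genes were lower for 12 of 20 members (60.0%) and higher for 0. Idi1, isopentenyl diphosphate isomerase, read 7.33, 6.66 and 7.17 in fasted pull-downs, against 7.64, 8.63, 7.68 and 7.83 in fed pull-downs. Both array 2 samples lay at the outer ends, and the log2 fold change of -0.89 ± 0.24 SE (limma adjusted p = 0.484) was -0.47 without them. Cyp51, lanosterol demethylase, read 6.99, 6.74 and 7.05 in the fasted group and 7.25, 7.60, 7.33 and 7.48 in the fed group (-0.49, adjusted p = 0.420, and -0.33 without both). Sqle, squalene epoxidase, was among the steadiest, with 7.52, 7.31 and 7.62 after fasting and 7.81, 7.61, 7.91 and 8.04 in fed mice (-0.36, and -0.35 without both). Its highest fasted array just overlapped its lowest fed array.

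The other lower members were the farnesyl diphosphate synthase Fdps (-0.47), the decarboxylase Mvd (-0.42), Msmo1 (-0.41), Sc5d (-0.33), squalene synthase Fdft1 (-0.25) and Lss (-0.20), with Srebf2 (-0.48), the transcription factor of the pathway, its retention partner Insig1 (-0.29) and the sterol carrier Stard4 (-0.57). Without both array 2 samples Stard4 had -0.19, Insig1 -0.18, Lss -0.12 and Sc5d -0.11. Srebf2 was -0.06 when the median over its 5 probe sets was taken. The list median was -0.27 and ran from -0.37 (without fasted array 3) to -0.15 (without fasted array 2), and without both array 2 samples it was -0.18, with 7 members lower. Genes of fatty acid synthesis had a median of -0.11, with 1 of 20 lower and 0 higher, and genes of cholesterol transport had 1 of 17 higher, Apod (0.24), while without both array 2 samples Apod had 0.14 and Lcat (-0.28) was lower instead.

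Promoters of Idi1 and Cyp51, whose values by array are given above, are shown with CCAAT on either strand in capitals. CCAAT is the motif of NF-Y, which works beside Srebf2, the transcription factor of the pathway.
Idi1 (chr13:8885356-8885605, plus strand): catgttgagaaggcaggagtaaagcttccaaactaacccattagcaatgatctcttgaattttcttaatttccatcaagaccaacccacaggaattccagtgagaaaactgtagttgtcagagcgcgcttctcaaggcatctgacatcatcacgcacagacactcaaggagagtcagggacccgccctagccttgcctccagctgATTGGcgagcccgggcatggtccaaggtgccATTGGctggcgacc
Cyp51 (chr5:4104698-4104947, minus strand): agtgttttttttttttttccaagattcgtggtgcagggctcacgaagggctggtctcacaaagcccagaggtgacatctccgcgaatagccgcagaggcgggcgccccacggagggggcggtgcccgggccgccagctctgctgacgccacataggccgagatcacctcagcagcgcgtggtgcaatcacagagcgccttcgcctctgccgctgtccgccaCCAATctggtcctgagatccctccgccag
CCAAT stood in 15 of 20 listed promoters (75.0%) of the 16 matched cholesterol synthesis genes, against 33.8% of all promoters. The sterol element TCACNCCAC stood in 1 (5.0%, Hmgcs1) against 1.05%. Only this spelling was searched, so other forms of the sterol element were not counted.

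**Figure D3:**
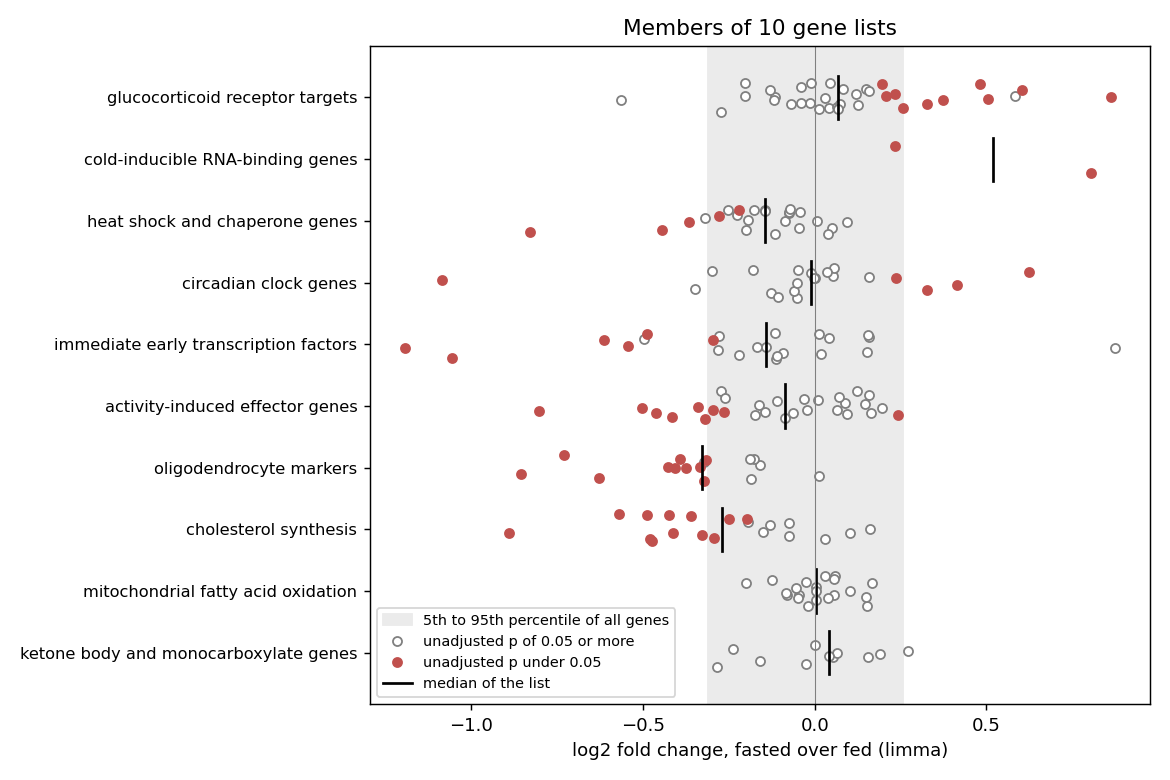
Log2 fold change, fasted over fed, of each measured member of 10 gene lists, with members at an unadjusted p under 0.05 in red, a black bar at each list's median and the 5th to 95th percentile of all genes shaded (-0.31 to 0.26). Among red members, lower ones outnumber higher ones in the heat shock, immediate early, activity-induced effector, oligodendrocyte and cholesterol lists. No member of fatty acid oxidation or ketone metabolism is red.

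Both cold-inducible genes measured were higher after fasting at an unadjusted p under 0.05. Rbm3, an RNA-binding protein that mild cold induces, read 10.98, 11.31 and 11.13 in fasted pull-downs, against 10.14, 10.12, 10.58 and 10.49 in fed pull-downs (log2 fold change 0.81 ± 0.15 SE, limma adjusted p = 0.359). Cirbp, the related cold-inducible protein, read 7.06, 7.0 and 7.12 in the fasted group and 6.81, 6.69, 6.96 and 6.83 in the fed group (0.23, adjusted p = 0.617). Both genes had every fasted array above every fed array, and their values without both array 2 samples were 0.65 and 0.22.

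Heat shock and chaperone genes were lower for 5 of 24 (20.8%) and higher for 0. Hspa1a, the inducible Hsp70, read 4.38, 4.42 and 4.76 after fasting, against 5.25, 6.16, 4.79 and 5.19 in fed mice. Fed array 2 was the highest and fed array 3 close to the fasted group (log2 fold change -0.83, standard error 0.27), and the value was -0.56 without fed array 2. Dnajb1, an Hsp40 partner of Hsp70, read 7.0, 6.97 and 7.01 in the fasted group and 7.25, 7.24, 7.12 and 7.25 in the fed group, a small but separate difference (-0.22). Hspb1 (-0.45), Sdf2l1 (-0.37) and Chordc1 (-0.28) were the other lower members. Chordc1 was -0.16 without fed array 2. The list median was -0.15, and -0.12 without both array 2 samples, again with 5 members lower. Body temperature is not given in the sources used here.

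Circadian clock genes differed in both directions, with 4 of 21 higher (19.0%) and 1 lower. Ciart, a repressor that clock activators drive, read 6.11, 6.17 and 6.40 in fasted pull-downs, against 5.64, 5.16, 5.73 and 5.89 in fed pull-downs (log2 fold change 0.63 ± 0.17 SE, limma adjusted p = 0.492). Usp2, a rhythmic deubiquitinase, read 6.55, 6.58 and 6.48 in the fasted group and 6.24, 6.08, 6.17 and 6.36 in the fed group (0.33). These groups did not overlap. Npas2 (0.41, and 0.22 without both array 2 samples) and Cry2 (0.24) were the other higher members. Leaving out both array 2 samples gave 4 higher and 2 lower members, the lower ones being Nr1d1 and Per3 (-0.18, against -0.05 with all arrays).

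Nr1d1, the repressor Rev-erb alpha, read 2.50, 3.29 and 4.11 on fasted arrays and 3.95, 4.20, 4.66 and 4.73 on fed arrays. It lay near the floor of 3.96 and its groups overlapped (log2 fold change -1.09, and -0.69 without fasted array 1). Its paralog Nr1d2 was well expressed, with 8.18, 8.16 and 8.34 after fasting and 8.38, 8.31, 8.23 and 8.42 in fed mice (-0.11). The output factor Dbp (-0.13), Per1 (0.16) and Arntl (-0.05) overlapped between the groups. Per the methods, fed and fasted mice were killed at the same hour of the morning. Ciart is printed for its E-boxes, CACGTG in capitals, the site of the clock activators.
Ciart (chr3:95882229-95882478, minus strand): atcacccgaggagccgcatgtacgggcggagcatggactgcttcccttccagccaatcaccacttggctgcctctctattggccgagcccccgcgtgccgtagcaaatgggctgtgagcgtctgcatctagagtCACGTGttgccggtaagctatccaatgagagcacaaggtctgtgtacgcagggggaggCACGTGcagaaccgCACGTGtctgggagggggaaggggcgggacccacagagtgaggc
An E-box stood in 6 of 28 listed promoters (21.4%) of the 19 matched clock genes, against 6.02% of all promoters.

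Lists of genes that burn fatty acids and ketone bodies had medians close to that of all genes (0.004 and 0.04, against -0.02). Single members reached values as large as some at an unadjusted p under 0.05 in other lists. Of 21 genes of mitochondrial fatty acid oxidation 0 were higher and 0 lower at an unadjusted p under 0.05, with values from -0.20 (Echs1) to 0.17 (Acaa2) and overlap between the groups in every member. Cpt1a, the entry enzyme of that pathway, read 5.93, 6.28 and 6.04 in fasted pull-downs and 6.0, 6.17, 5.93 and 5.82 in fed pull-downs. The 95% interval of its log2 fold change of 0.10 ran from -0.13 to 0.33. Pdk4, a kinase that shuts off pyruvate oxidation and that fasting raises in many tissues, read 7.40, 7.11 and 7.44 in the fasted group and 7.32, 7.93, 7.41 and 7.42 in the fed group. Its interval ran from -0.60 to 0.19 around -0.20.

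None of 11 genes of ketone body and monocarboxylate metabolism passed that threshold, with values from -0.28 (Bdh2) to 0.27 (Slc16a3, a lactate exporter). Of 23 genes of the tricarboxylic acid cycle 0 passed, and of 38 subunits of oxidative phosphorylation 1 was higher (Uqcrc2, 0.18) and 1 lower (Ndufc1, -0.39), shares close to those of all genes. When both array 2 samples were left out, Dlat (0.20), of the pyruvate dehydrogenase complex, was higher in the cycle list and Uqcrc2 alone remained in the other. Glycolysis had 1 of 23 higher, the glucose transporter Slc2a1 (0.24), which endothelium also makes, and 0 without both array 2 samples. Glycogen metabolism had 2 of 17 lower, the phosphorylase kinase subunits Phkg1 (-0.32) and Phkb (-0.14). Neither passed without both array 2 samples, where the kinase Gsk3b (0.26) was higher and the list median was 0.030, against -0.031 with all arrays. Insulin and IGF signalling had 1 of 26 lower, the kinase Akt2, with 7.96, 7.83 and 7.86 in fasted pull-downs and 8.10, 8.19, 8.37 and 8.37 in fed pull-downs (-0.37, adjusted p = 0.420 from limma).

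Amino acid breakdown had 3 of 29 members higher (10.3%) and 1 lower. Prodh, the first enzyme of proline breakdown and one that astrocytes express, read 6.49, 6.39 and 6.36 in the fasted group and 6.13, 6.14, 6.24 and 6.11 in the fed group (log2 fold change 0.26 ± 0.07 SE, limma adjusted p = 0.530). Aass (0.26), which starts lysine breakdown, and Cbs (0.21), of the transsulfuration pathway, were the other higher members. Ornithine aminotransferase Oat was the lower one (-0.21), and it did not pass without both array 2 samples (-0.19). Aldh7a1, a dehydrogenase further along lysine breakdown that is not on the list, was among the 10 smallest p-values, with 6.32, 6.23 and 6.24 in fasted pull-downs and 6.64, 6.87, 6.74 and 6.75 in fed pull-downs (-0.48, adjusted p = 0.275). All 3 fasted arrays lay below all 4 fed arrays. Genes of the integrated stress response had 1 of 22 higher (4.55%) and 2 lower (9.09%), with 14 of 22 negative and a median of -0.04. Atf4 (-0.34) and the cystine transporter Slc7a11 (-0.43) were the lower ones and Chac1 (0.38) the higher one, and without both array 2 samples Slc7a11 alone passed. Each of Atf4 and Chac1 depended on an array 2 sample (-0.15 without fasted array 2, 0.22 without fed array 2).

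Astrocyte genes themselves had small fold changes, more of them negative than positive with all arrays. Of 22 astrocyte markers 2 (9.09%) were lower, the water channel Aqp4 (-0.37) and the mitochondrial glutamate carrier Slc25a18 (-0.34), and 0 were higher. Aqp4 read 7.0, 6.55 and 6.98 on the fasted arrays and 6.98, 7.51, 7.19 and 7.19 on the fed arrays, with array 2 of each group at the outer ends, and its value was -0.13 without both. Slc25a18 then had -0.24 and did not pass either, leaving 0 lower and 1 higher, the gap junction protein Gjb6 (0.31). The marker median was -0.07, with 16 of 22 negative, and 0.00 without both array 2 samples. Of 17 genes of glutamate, GABA and potassium handling 14 were negative, with a median of -0.12. In that list 2 (11.8%) were lower and 0 higher, and 3 (17.6%, against 4.27% of all genes) had every fasted array below every fed array. Without both array 2 samples its median was -0.08, with 0 lower and 1 higher. The glutamate transporter Slc1a3 read 11.49, 11.15 and 11.48 in fasted pull-downs and 11.41, 11.43, 11.50 and 11.43 in fed pull-downs, so its groups overlapped. Gfap, the filament protein that rises in reactive astrocytes, read 8.19, 8.07 and 8.33 in the fasted group and 8.01, 8.03, 8.01 and 8.17 in the fed group (0.14). Of 32 genes of reactive astrocytes 1 was higher (Fkbp5) and 4 were lower (12.5%), namely Hspb1, S100a10 (-0.38), Timp1 (-0.35) and Cd14 (-0.29). That balance turned without both array 2 samples, where 3 were higher (Fkbp5, Ptgs2 and B3gnt5) and 2 lower (S100a10 and Cd14), and the list median was 0.024, against -0.026 with all arrays.

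Choroid plexus genes were high on single arrays. The choroid plexus is the secretory epithelium of the ventricles, beside the hippocampus. The mean of 8 of its genes was 4.77, 7.58 and 4.60 on the fasted arrays, against 4.84, 4.66, 4.87 and 5.92 on the fed arrays, so fasted array 2 stood far above the rest and fed array 4 next. Transthyretin (Ttr) read 5.99, 8.35 and 5.95 in the fasted group and 5.79, 6.03, 6.27 and 7.23 in the fed group. For the whole list of 13 choroid plexus and ependymal markers the median was 0.43, and -0.45 without both array 2 samples. None of the 8 passed an unadjusted p of 0.05.

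Ependymal genes, split from that list after the values were seen, differed otherwise. Ccdc153, a protein of motile cilia, read 8.40, 7.25 and 7.69 on the fasted arrays, against 8.83, 8.92, 8.74 and 9.10 on the fed arrays (log2 fold change -1.12 ± 0.22 SE, limma adjusted p = 0.370). Tmem212, of the same cells, read 5.52, 4.74 and 4.84 in the fasted group and 5.53, 5.63, 5.62 and 5.72 in the fed group (-0.59). For both genes every fasted array lay below every fed array, with fasted array 1 the nearest. Foxj1, the master factor of motile cilia, overlapped, with 5.55, 6.14 and 5.40 on fasted and 5.34, 5.61, 6.17 and 6.0 on fed arrays (-0.08), as did Rsph1 (-0.07) and Dynlrb2 (-0.24). Values without both array 2 samples were -0.85 for Ccdc153 and -0.44 for Tmem212.

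**Figure D4:**
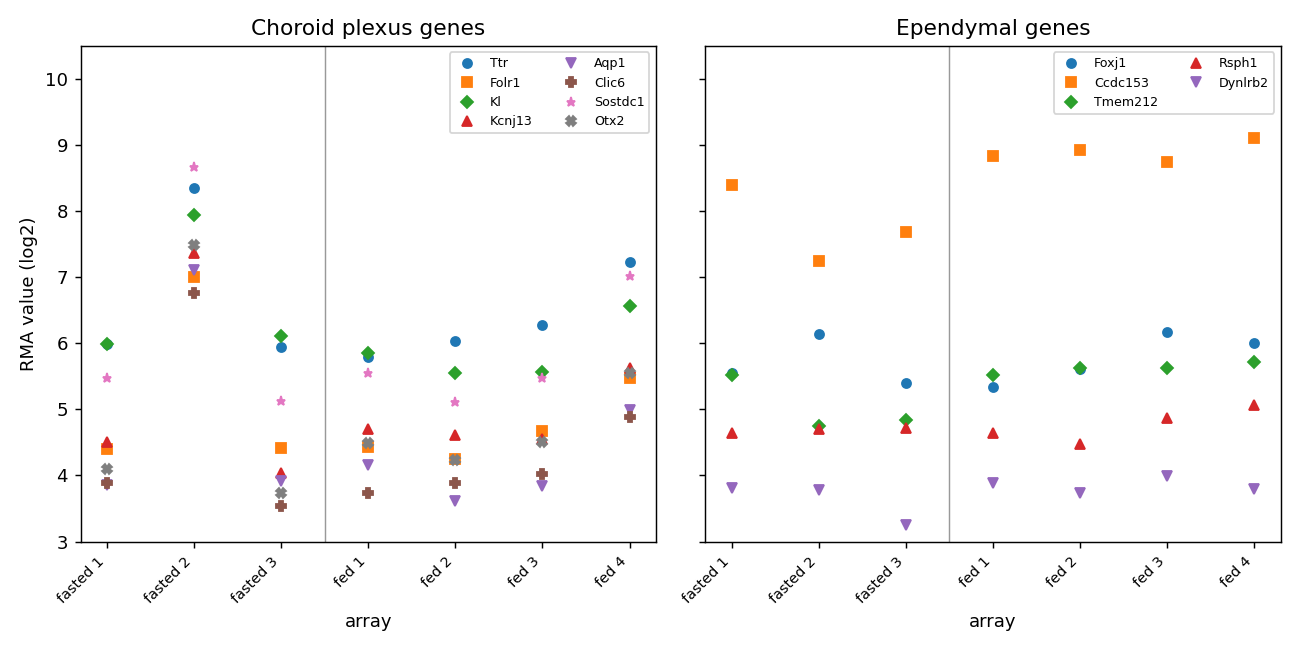
RMA value (log2) of 8 choroid plexus genes (left) and 5 ependymal genes (right) on each of the 3 fasted and 4 fed arrays. All 8 choroid plexus genes are highest on fasted array 2 and next highest on fed array 4, while Ccdc153 and Tmem212 are lower on every fasted than on every fed array.

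With all 7 arrays, the largest fold changes belonged to genes outside these groups. Glp2r, the receptor of the gut peptide GLP-2, read 6.85, 6.32 and 7.18 in fasted pull-downs, against 5.03, 4.52, 5.88 and 3.77 in fed pull-downs (log2 fold change 1.99 ± 0.45 SE, limma adjusted p = 0.413). The fed arrays spread over more than 2 log2 units, and the median over its 2 probe sets gave 1.19. Ankub1 read 5.52, 4.05 and 4.82 in the fasted group and 6.80, 7.68, 7.14 and 6.59 in the fed group, the lowest log2 fold change of all genes with all arrays (-2.26, standard error 0.41, adjusted p = 0.336), and -1.37 over the median of its 2 probe sets. Both had groups that did not overlap. Without both array 2 samples Glp2r had 2.12 and Ankub1 -1.67, and the extremes were then Gm8983 (2.80) and E130112M24Rik (-2.44), whose groups overlapped with all arrays.

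Further genes with high values were the transcript A530006G24Rik (1.29), P3h2 (0.87), a collagen prolyl hydroxylase, Ikbkg (0.85), the regulatory subunit of the kinase that activates NF-kappa B, the lipoxygenase Alox12b (0.80) and the transcription factor Tfcp2l1 (0.76). Among the low ones were the cadherin Cdh10 (-1.23), the transcripts 1700047M11Rik (-1.03) and Gm1976 (-1.09), Prrg1 (-0.95), Gkn3 (-0.94), Cnmd (-0.93) and the histone demethylase Kdm7a (-0.89). Several of these rested on 1 probe set among several. With the median over probe sets Cdh10 had -0.01, A530006G24Rik 0.51, Vps13d 0.10 in place of 0.65, and Sinhcaf -0.15 in place of -0.84.

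Brwd3, a chromatin reader, was the 1 gene past an adjusted p of 0.05 once fasted array 2 was left out (adjusted p = 0.0127 from limma), and also without both array 2 samples (1 of 20259 genes, 0.00494%). It read 4.39, 6.75 and 3.81 on the fasted arrays, against 6.10, 6.54, 6.07 and 5.94 on the fed arrays. Fasted array 2 was thus the highest of the 7 and the other fasted arrays the lowest, and the log2 fold change was -1.18 (standard error 0.52, adjusted p = 0.698) with all arrays and -2.06 without that array.

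**Figure D5:**
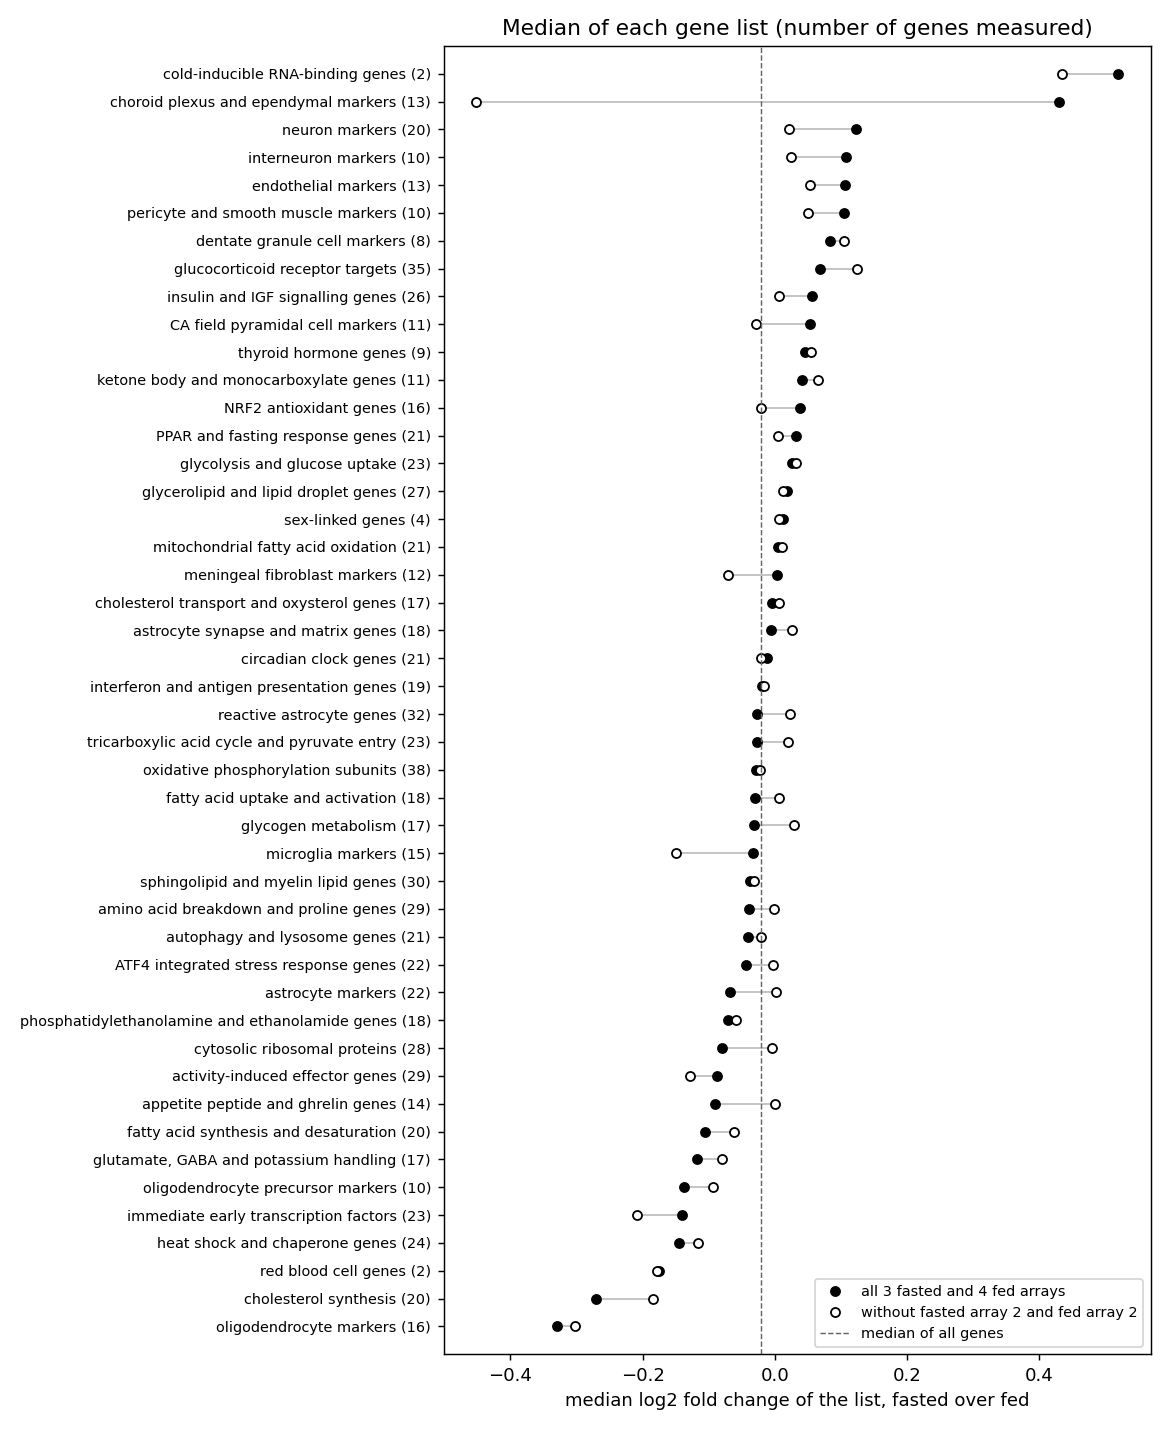
Median log2 fold change, fasted over fed, of each of 46 gene lists (number of measured genes in brackets), with all 3 fasted and 4 fed arrays (filled) and without fasted array 2 and fed array 2 (open); the dashed line is the median of all genes, -0.02. Oligodendrocyte markers (-0.33) and cholesterol synthesis (-0.27) lie lowest, and the choroid plexus and ependymal list moves from 0.43 to -0.45.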

How the data were processed

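The values were deposited by the authors as 1 table of 115830 probe sets on 11 arrays, on a log2 scale. Per the labels and methods, RNA from the pull-downs was amplified with the NuGEN Pico kit, labelled with biotin, hybridized to Affymetrix mouse exon arrays and processed with RMA in Partek (mm9, versions not given in the sources used here). RMA forces arrays to a common distribution and compresses low signals. The log base is not stated and was read as log2. The 25539 probe sets with 1 symbol gave 20259 genes, each represented by the set of highest mean. Sets with several symbols (2300) or none (87991) were left out of the gene tests. limma 3.58.1 in R 4.3.3 fitted the diet means to all 11 arrays, with Benjamini-Hochberg adjustment over all genes and a threshold of 0.05, and was tested on simulated data. The number of arrays limits the precision. Of 969 list entries in 46 lists, 855 were measured. Members, lists and tests were chosen with earlier results of these data known. Genes named by rule were the 15 highest and 15 lowest fold changes (unadjusted p under 0.01, above the odorant receptor floor, no overlap between groups, same sign without both array 2 samples), the 10 smallest p-values, and in each list up to 4 members of smallest p under 0.05, with Etnppl, Aldh1l1 and genes past the threshold in an alternative. Other genes were named after their values were seen. Promoter sequences came from RefSeq (GRCm38.p6).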

Additional observations from a re-analysis of the deposited data

Results flagged for a closer look

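In the group of 4 fed arrays, 8 of the 98 genes named by rule had 1 array set far apart from the other 3, where chance flags about 1 in 20 groups. Fed array 2 was the lowest for Hif3a (4.18), and the highest for Gem (5.09) and Chordc1 (5.72). Fed array 1 was the lowest for Prrg1 (7.34), Phkg1 (5.20) and Car2 (8.0), and the highest for Dusp6 (7.86). Fed array 3 was the lowest for Dnajb1 (7.12). For Hif3a the fasted arrays lay above all fed arrays with or without that array, and for Gem, Chordc1, Prrg1, Dusp6 and Dnajb1 they lay below all of them. For Phkg1 and Car2 the lowest fed array overlapped the fasted group. The group of 3 fasted arrays was too small for this test.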

How the results depend on the processing

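The number of arrays and the single large deviations of fasted array 2 and fed array 2 limit these results. No gene passed an adjusted p of 0.05 with the 7 arrays alone, centred arrays, array weights, genes above the floor, the median over probe sets, a trended robust prior, all 115830 probe sets, or the t-test of the methods. Without both array 2 samples 1 gene passed (Brwd3, log2 fold change -1.94, adjusted p = 0.0133 from limma), and leaving out single arrays gave 0 to 1 genes (Fos, -1.35, without fed array 3, and Brwd3 without fasted array 2). At an unadjusted p under 0.05, leaving out single arrays gave 389 to 537 higher and 621 to 1189 lower genes, the 621 without fasted array 2, and the 7 arrays alone gave 302 higher. The cause was not tested. Without both array 2 samples the sign changed for Aldh1l1 (0.0042), Mbp (-0.072), Pdk4 (0.039), Slc1a3 (0.041) and Ttr (-0.46), with array weights for Mbp (-0.054) and Ttr (-0.090), with centred arrays for Sgk1 (0.013), with the median over probe sets for Dusp5 (0.035), Klf4 (-0.21) and Tsc22d3 (-0.17), and with the replicate block for Tsc22d3 (-0.0026). Leaving out 1 array in turn changed the sign of 9 genes, with ranges of Foxj1 -0.30 (without fasted array 2) to 0.064 (without fasted array 3), Mbp -0.078 (without fed array 2) to 0.051 (without fed array 4), Mt1 -0.044 (without fasted array 1) to 0.17 (without fasted array 2), Per3 -0.17 (without fasted array 2) to 0.018 (without fasted array 3), Rsph1 -0.17 (without fed array 2) to 0.029 (without fed array 4), Sgk1 -0.16 (without fasted array 2) to 0.10 (without fasted array 1), Slc1a3 -0.13 (without fasted array 1) to 0.045 (without fasted array 2), Tsc22d3 -0.00048 (without fasted array 1) to 0.24 (without fasted array 2) and Ttr -0.36 (without fasted array 2) to 0.84 (without fasted array 3). The 98 genes named by rule kept the sign of their log2 fold change in 1857 of 1858 combinations of gene and setting, and the 58 named after their values were seen in 1074 of 1099. Much of this was fixed in advance. Leaving out ketogenic arrays, the 7 arrays alone, the floor and the trended prior cannot change a fold change. Genes chosen for groups that did not overlap cannot change sign when arrays are left out. Of 782 alternative medians of gene lists 5 moved by more than the spread between arrays, those of glucocorticoid receptor targets, insulin signalling and amino acid breakdown. That spread was the larger SD of the list mean within the fed or fasted group, which a single deviating array widens. The choroid plexus and ependymal list thus counted as not moved, though its median went from 0.43 to -0.45 without both array 2 samples. Leaving out ketogenic arrays cannot move any of these medians. The labels number the samples within each diet. Deviations of fed and fasted samples with the same number correlated at 0.0440, 0.183 and 0.131. Those of fed and fasted samples with different numbers correlated at -0.190 to 0.119. Whether the numbers pair the samples cannot be told from these values. With the replicate block 0 genes passed, and 467 were higher and 847 lower.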
